A study of Mus musculus with 9 samples.

Results

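MHC class II molecules present peptides from endocytosed proteins, and the values below describe their genes and loading genes in infarcted mouse hearts. The 8 genes were Cd74, H2-Aa, H2-Ab1, H2-Eb1, H2-DMa, H2-DMb1, H2-DMb2 and Ciita, out of 53465 genes in the count tables. They were found by matching mouse Ensembl gene identifiers to these symbols. They had been chosen for their levels in these same libraries, so their values, and the counts of those past a threshold, are given only as a description and support nothing.

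RNA was sequenced from 9 libraries of hearts of NOD-SCID mice, 3 per group. The sham group had sham surgery. The ligation group had a coronary artery tied off, which infarcts the muscle it feeds. The cell group had the same ligation and also received implanted FOXO3-GE-MPCs, a name that the labels do not spell out. The labels place every sample, sham included, in the infarct border zone. NOD-SCID mice lack mature T and B lymphocytes, so all 3 groups share this immunodeficiency. The labels give no age, sex, time after surgery, count of implanted cells or statement that the libraries came from separate animals. Any p-value therefore measures only the spread between these libraries, which may be technical. Another field of cell replicates 2 and 3 names FOXO4 and FOXO5 in place of FOXO3, while their title and treatment fields name FOXO3, which was followed. The column headers of sham replicates 1 and 2 share a name stem, as do those of ligation replicates 2 and 3. Whether libraries with a shared stem came from 1 animal is not stated, so n = 3 counts libraries.

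Class II molecules are pairs of an alpha and a beta chain, carried mainly by dendritic cells, macrophages and B cells, and recognised by CD4+ T cells. In the endoplasmic reticulum the invariant chain, encoded by Cd74, occupies the peptide groove. In endosomes proteases trim it to a short fragment called CLIP, and the H2-DM heterodimer helps exchange CLIP for peptide. The co-activator CIITA, which does not itself bind DNA, switches these genes on through proteins bound at a conserved X box and Y box in their promoters. In the heart, resident and recruited macrophages are a main class II-bearing population.

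The promoter stretches are shown because all members but Ciita are known targets of this promoter module. RefSeq windows on GRCm38.p6 were found for 5 of the 8 members, running from 250 bases before to 50 bases after a gene start. They were searched on both strands for the letters TGATTGG, a form of the Y box, and GCAAC, letters at the core of many X boxes. The 2 motifs share no letters that overlap in these windows. Each stretch below is read 5′ to 3′ along the gene's own strand, with these motifs in capitals. The first is the alpha chain promoter (chr17:34287859-34287918, minus strand), the next the H2-Eb1 promoter (chr17:34305761-34305820, plus strand), then H2-DMb2 (chr17:34145112-34145171, plus strand). H2-Ob (chr17:34238801-34238860, plus strand) encodes a chain of H2-DO, which restrains H2-DM, and is shown for comparison.
H2-Aa: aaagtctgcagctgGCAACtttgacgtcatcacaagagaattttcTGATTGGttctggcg
H2-Eb1: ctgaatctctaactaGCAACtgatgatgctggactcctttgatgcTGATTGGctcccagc
H2-DMb2: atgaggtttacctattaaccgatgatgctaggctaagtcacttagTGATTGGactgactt
H2-Ob: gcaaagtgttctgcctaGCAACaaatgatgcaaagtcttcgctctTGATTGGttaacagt

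GCAAC began 31 bases before TGATTGG in H2-Aa, 30 in H2-Eb1 and 28 in H2-Ob. Of 32851 RefSeq windows of this length, 7.82% held TGATTGG, 35.2% held GCAAC and 0.103% held the pair at 25 to 35 bases. The H2-DMb2 and H2-DMb1 windows held TGATTGG without GCAAC, and their 60-base stretches were identical at 53 bases. Both H2-DMa windows lacked TGATTGG. A match is a description of letters, and a missing match says only that these letters are not in the window. The windows are those of the reference build, and the sequences of the NOD-SCID mice themselves were not examined.

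Gene counts summed to between 4549268 (ligation replicate 1) and 7515052 (ligation replicate 3) per library. Levels are CPM, the usual unit of a gene's counts relative to its library's total, scaled between libraries by the trimmed mean of M-values (TMM). A count of 3 corresponded to between 0.375 and 0.639 CPM, and intervals or floors of this kind cover counting error only. All 8 members passed the filter on low counts, as did 13825 genes in all.

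The summed level of the 8 genes was highest after ligation and lowest after ligation with implanted cells. It was 335, 338 and 342 CPM in the sham libraries, 538, 511 and 531 CPM in the ligation libraries, and 140, 148 and 142 CPM in the cell libraries. The 3 groups did not overlap. The ligation mean of 527 ± 13.8 CPM (SD, n = 3) was 1.56 times the sham mean of 338 ± 3.74. The cell mean of 143 ± 4.64 was 0.272 times the ligation mean and 0.423 times the sham mean. In bulk tissue, fewer cells of a type and less RNA per cell cannot be told apart. The ligation libraries enter 2 of the comparisons and the sham libraries also 2, so the comparisons are not independent of each other.

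**Figure D1:**
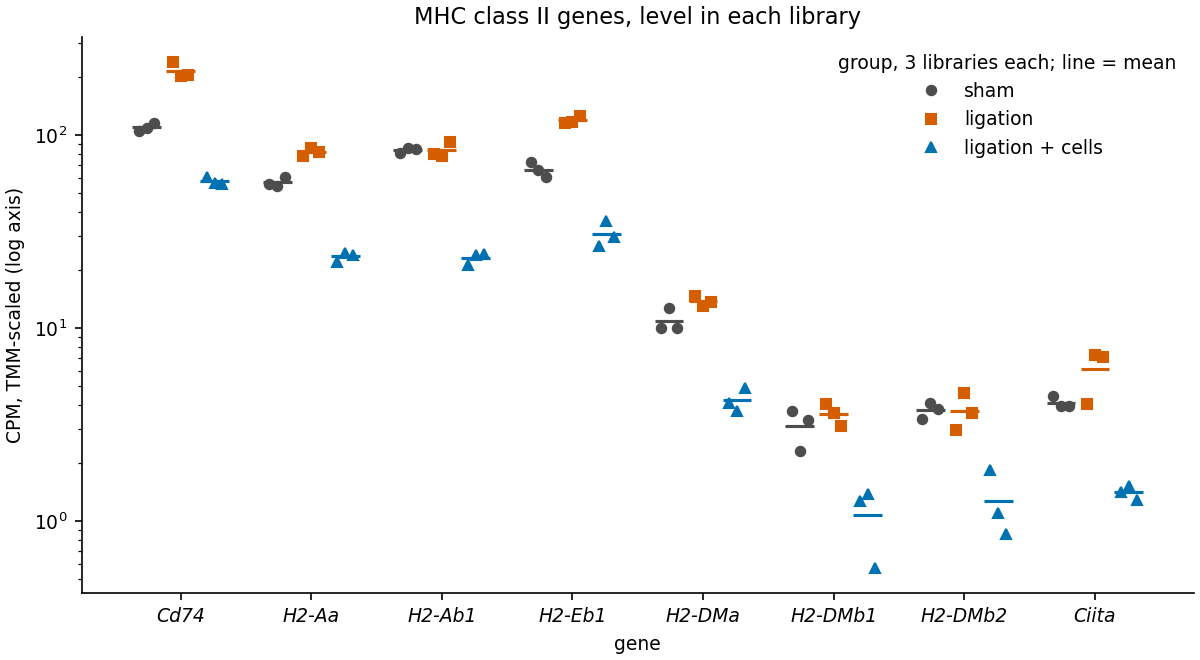
TMM-scaled CPM (log axis) of each MHC class II gene in the sham, ligation and ligation + cells groups; points are the 3 libraries of a group and the short lines their means. For all 8 genes the cell libraries sit below every sham and ligation library. Sham and ligation points overlap for H2-Ab1, H2-DMb1, H2-DMb2 and Ciita.

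Among the chain genes, H2-Aa encodes the alpha chain and H2-Ab1 the beta chain of the I-A molecule. H2-Aa (ENSMUSG00000036594, mm10 chromosome 17, 34282744 to 34287823, minus strand) was at 55.5, 54.5 and 60.6 CPM in sham. It was at 78.2, 85.5 and 81.5 CPM after ligation and at 22.1, 24.4 and 24.1 CPM with implanted cells. The 3 groups were fully separate. The fitted log2 fold change was 0.52 (SE 0.0711) for ligation minus sham and −1.80 (SE 0.0779) for cells minus ligation.

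Its partner H2-Ab1 (ENSMUSG00000073421, chromosome 17, 34257689 to 34269419, plus strand) was at 80.6, 86.0 and 84.8 CPM in sham and 79.5, 77.8 and 92.6 CPM after ligation. These ranges overlapped, and the means of 83.8 ± 2.81 and 83.3 ± 8.10 CPM (SD, n = 3 each) differed by less than the spread between replicates. In the cell libraries it was at 21.3, 24.0 and 24.2 CPM, apart from both other groups. Its log2 fold change was −1.85 (SE 0.0845) for cells minus ligation.

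H2-Eb1 (ENSMUSG00000060586, chromosome 17, 34305867 to 34316674, plus strand) encodes the beta chain of the I-E molecule. It was at 72.4, 65.9 and 60.5 CPM in sham, 115, 117 and 125 CPM after ligation, and 26.5, 36.1 and 29.8 CPM with implanted cells. The groups were again separate, with log2 fold changes of 0.85 (SE 0.0847) for ligation minus sham and −1.95 (SE 0.0909) for cells minus ligation. The gene for the I-E alpha chain, H2-Ea, annotated as H2-Ea-ps, had 0 counts in all 9 libraries. H2-Eb1 was thus counted without transcripts of its alpha partner.

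Cd74 (ENSMUSG00000024610), the invariant chain, was the highest member in CPM in every library. It was at 105, 109 and 115 CPM in sham, 239, 203 and 204 CPM after ligation, and 61.0, 56.2 and 55.9 CPM with implanted cells. No group overlapped another. Its log2 fold change for ligation minus sham was 0.97 (SE 0.0688), and for cells minus ligation −1.90 (SE 0.0720).

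The peptide-exchange genes were counted at lower depth. H2-DMa, the alpha chain of H2-DM (ENSMUSG00000037649, chromosome 17, 34119541 to 34139101, plus strand), was at 9.97, 12.7 and 10.0 CPM in sham. It was at 14.7, 13.0 and 13.8 CPM after ligation and 4.11, 3.75 and 4.90 CPM with implanted cells. Sham and ligation were separated only by the gap between 12.7 and 13.0 CPM, while the cell libraries were far below both. Its exons overlap the oppositely transcribed Brd2 over 10.4% of their length, and without a stated strand setting such reads cannot be told apart.

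H2-DMb1 and H2-DMb2 encode alternative H2-DM beta chains and lie side by side on the plus strand of chromosome 17, H2-DMb2 at 34143307 to 34151555 and H2-DMb1 at 34153072 to 34160230. H2-DMb1 shares 31.4% of its 31-base words with other genes, and H2-DMb2 36.6%, in both cases mainly with each other, so the split of reads between them is uncertain. H2-DMb1 was at 3.74, 2.31 and 3.33 CPM in sham, 4.05, 3.62 and 3.13 CPM after ligation, and 1.28, 1.39 and 0.576 CPM with implanted cells. H2-DMb2 was at 3.38, 4.12 and 3.81 CPM in sham, 2.98, 4.63 and 3.63 CPM after ligation, and 1.84, 1.11 and 0.864 CPM with implanted cells. For both genes sham and ligation overlapped and the cell libraries were lower. Added together they gave means of 6.90 ± 0.408 CPM in sham, 7.34 ± 0.796 after ligation and 2.35 ± 0.849 with implanted cells (SD, n = 3).

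Ciita, the class II transactivator (ENSMUSG00000022504, chromosome 16, 10480059 to 10528418, plus strand), was at 4.45, 3.95 and 3.97 CPM in sham. It was at 4.05, 7.24 and 7.13 CPM after ligation and 1.42, 1.53 and 1.30 CPM with implanted cells. Ligation replicate 1 lay within the sham range and the other ligation libraries above it. The cell libraries, with 10, 11 and 9 counts, were the lowest. The log2 fold change for cells minus ligation was −2.14 (SE 0.307), the lowest of the 8 fitted values, and the values of H2-Ab1, Cd74 and H2-Eb1 lay within 1 standard error of it.

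**Figure D2:**
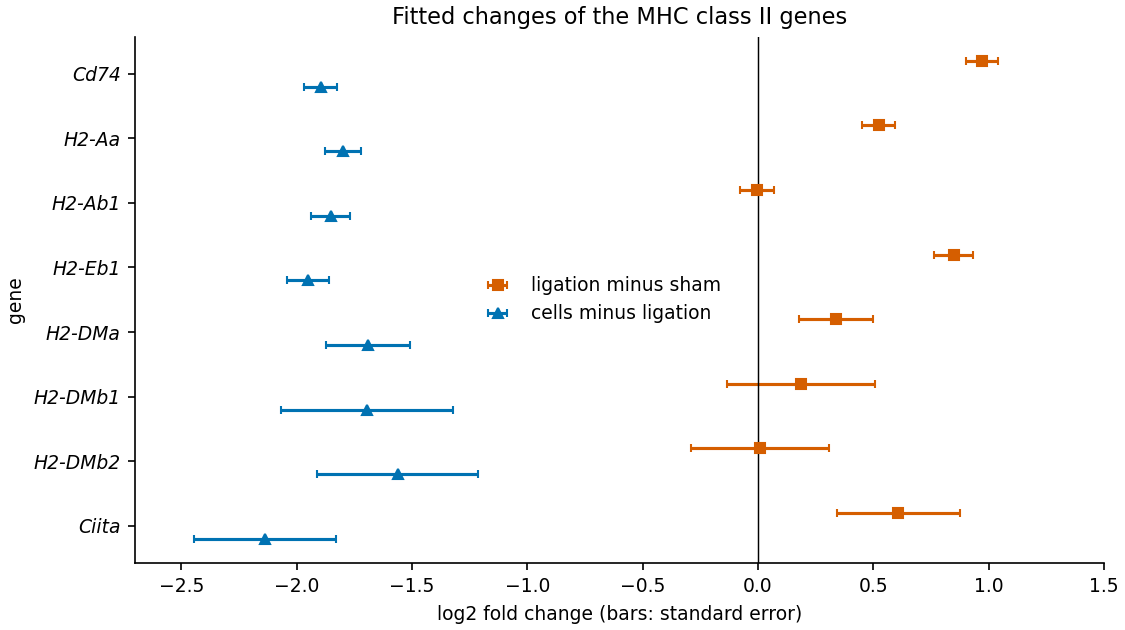
Fitted log2 fold change of each MHC class II gene (points) with its standard error (bars) for ligation minus sham and for cells minus ligation. The values for cells minus ligation run from −2.14 for Ciita to −1.56 for H2-DMb2, while those for ligation minus sham spread from near 0 for H2-Ab1 and H2-DMb2 to 0.97 for Cd74.

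Across members, the fitted log2 fold changes had a median of 0.43 for ligation minus sham, −1.83 for cells minus ligation and −1.43 for cells minus sham. The medians over all 13825 genes tested were 0.01, 0.00 and −0.01. At an adjusted p under 0.05 in edgeR's quasi-likelihood fit, 3 of the 8 members (Cd74, H2-Aa and H2-Eb1) were called higher in ligation than in sham and 5 were not called. Of all genes tested, which are the base of every such share, 20.1% were called higher there. All 8 were called lower with implanted cells than after ligation, where 5.69% of genes were called lower, and all 8 lower than in sham, where 20% were. By range, 4 members (those 3 and H2-DMa) had every ligation library above every sham library, as did 25% of genes. All 8 had every cell library below every ligation library, as did 14% of genes, and below every sham library, as did 24.5%. The members were chosen on these contrasts, so nothing is read from these shares. Without ligation replicate 1, Ciita was also called higher after ligation. With libraries of a shared header stem added together the counts were again 3 higher after ligation, and 8 lower with implanted cells than in either other group. With cell replicates 2 and 3 left out for their conflicting label, 6 of 8 members were called lower than ligation and 6 lower than sham, H2-DMb1 and H2-DMb2 being the exceptions.

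The level order of the members can be compared per exon length, taken as all bases in an exon of any annotated transcript of the gene. This length ran from 1679 bases for Cd74 to 9535 for Ciita, with 3798 for H2-Aa and 2568 for H2-Ab1. It can exceed the length of the transcripts present, so the order depends on the annotation. In sham, Cd74 had the highest level at 65.2 ± 3.18 CPM per kilobase of exon, followed by H2-Eb1 at 34.1 ± 3.08, H2-Ab1 at 32.6 ± 1.10 and H2-Aa at 15.0 ± 0.863 (SD, n = 3). H2-Eb1 and H2-Ab1 overlapped in sham. After ligation they did not, at 61.3 ± 2.60 and 32.4 ± 3.16 CPM per kilobase, nor with implanted cells, at 15.8 ± 2.49 and 9.02 ± 0.636. H2-DMa came next in each group, from 1.23 CPM per kilobase with implanted cells to 4.01 after ligation. H2-DMb1 and H2-DMb2 overlapped in each group. Ciita was lowest, at 0.433 CPM per kilobase in sham, 0.644 after ligation and 0.148 with implanted cells.

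Relative to H2-Ab1, the other chain genes and Cd74 were higher in both ligated groups than in sham. The ratio of H2-Ab1 to H2-Aa in CPM was 1.45, 1.58 and 1.40 in sham, against 1.02, 0.910 and 1.14 after ligation and 0.962, 0.983 and 1.01 with implanted cells. Every sham library lay above all 6 ligated libraries, and the ligation and cell libraries overlapped. H2-Eb1 per H2-Ab1 had a mean of 0.793 ± 0.0953 in sham, 1.43 ± 0.0785 after ligation and 1.33 ± 0.152 with implanted cells (SD, n = 3). Cd74 per H2-Ab1 was 1.31 ± 0.0483 in sham, 2.60 ± 0.403 after ligation and 2.51 ± 0.313 with implanted cells. Cd74 gave 32.4% of the summed class II level in sham, 40.8% after ligation and 40.3% with implanted cells. Among ratios without H2-Ab1, Cd74 per H2-Aa also had sham apart from both ligated groups, which overlapped each other. It was 1.93 ± 0.0591 in sham, 2.64 ± 0.365 after ligation and 2.46 ± 0.257 with implanted cells (SD, n = 3). Other ratios without H2-Ab1 separated the groups less. H2-Eb1 per H2-Aa was 1.17 ± 0.157 in sham, 1.46 ± 0.0840 after ligation and 1.31 ± 0.150 with implanted cells, and the H2-DM genes per H2-Aa were at 0.314 ± 0.0343, 0.259 ± 0.0161 and 0.282 ± 0.0391 (SD, n = 3). For H2-Eb1 and for the H2-DM genes per H2-Aa, sham and ligation did not overlap, while the cell libraries overlapped each of the other groups.

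The sham libraries also stood apart in genes outside the class II set, and this bears on each comparison with sham. Of all genes, 13 had at least 2 CPM in every sham library and under 1/8 of the lowest sham level in all 6 ligated libraries. They include 4 ribosomal protein genes, chosen after their values were seen. Rps18 had a mean of 242 CPM in sham, 18.1 after ligation and 15.4 with implanted cells, and Rpl29 had 112, 1.77 and 0.986 CPM. Whether what separates these genes also moved the class II values was not tested.

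**Figure D3:**
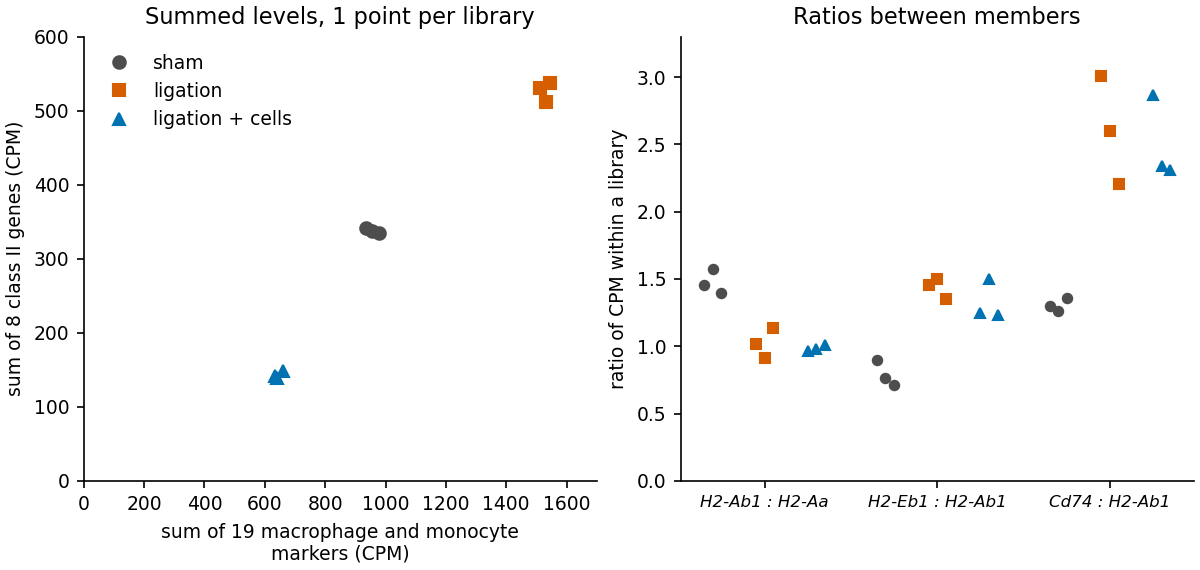
Left, summed CPM of the 8 class II genes against summed CPM of the 19 macrophage and monocyte markers, 1 point per library, with the cell libraries lowest on both axes and the ligation libraries highest. Right, ratios of CPM within each library for 3 pairs of class II genes, where sham lies apart from the ligation and cell libraries and the latter overlap each other.

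The summed macrophage and monocyte markers had the same order of groups as the class II sum. A list of 19 macrophage and monocyte markers summed to 957 ± 20.9 CPM in sham, 1530 ± 16.3 after ligation and 644 ± 14.5 with implanted cells (SD, n = 3), with ranges of 937 to 979, 1512 to 1544 and 633 to 661. In ligation minus sham 13 of these genes rose, 2 fell and 4 did not pass the test, while 38.2% of all genes were called in either direction. The 2 that fell were Cd163, a scavenger receptor, at 36.9 CPM in sham and 27.2 after ligation (edgeR, adjusted p = 0.00354), and Ly6c2, a monocyte marker, at 6.09 and 2.37 CPM (edgeR, adjusted p = 0.0336). With library totals alone neither was called (edgeR, adjusted p = 0.0723 and 0.0543), and Ly6c2 was also lost under DESeq2 (adjusted p = 0.176) and without sham replicates 2 or 3 or ligation replicates 2 or 3 (edgeR, adjusted p up to 0.384). In cells minus ligation 16 fell, none rose and 3 did not pass, against 9.87% of all genes called. The complement gene C1qa, abundant in tissue macrophages, was at 147 ± 11.7, 219 ± 5.47 and 92.6 ± 3.76 CPM in the 3 groups. It rose by a log2 fold change of 0.58 with ligation (edgeR's quasi-likelihood test, adjusted p = 1.86e-07) and fell by 1.24 with implanted cells (edgeR, adjusted p = 1.49e-11). Lyz2, the lysozyme gene of myeloid cells, was at 282, 618 and 261 CPM, with log2 fold changes of 1.13 and −1.24 (edgeR, adjusted p = 2.18e-13 and 4.17e-13).

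The class II sum per unit of the macrophage sum was 0.354 ± 0.0116 in sham, 0.344 ± 0.00944 after ligation and 0.222 ± 0.00356 with implanted cells (SD, n = 3). The sham and ligation ranges overlapped, and the cell libraries lay below both. Per C1qa the class II sum was 2.32 ± 0.215, 2.40 ± 0.0361 and 1.55 ± 0.0436, and per Csf1r 6.81 ± 0.737, 6.76 ± 0.150 and 5.19 ± 0.622, with the same overlaps. Per Lyz2 it was 1.20 ± 0.0719, 0.853 ± 0.0424 and 0.549 ± 0.0204, and all 3 groups were separate, sham the highest. Per Adgre1, which encodes F4/80, the means were 22.3 ± 3.19, 16.5 ± 1.53 and 14.6 ± 1.36, where sham lay above both other groups, which overlapped. Whether ligation lay apart from sham, and the cell group apart from ligation, therefore depended on the macrophage gene used as the base, and the part of macrophage number in the members' levels was not tested.

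Markers of other class II carriers were mostly low or mixed in direction. The 10 dendritic cell markers summed to 55.6 CPM in sham, 47.2 after ligation and 35.0 with implanted cells, and most of this was Zbtb46, at 42.9, 26.8 and 24.7 CPM. Clec10a, a lectin of dendritic cells and some macrophages, was at 3.69, 8.29 and 2.96 CPM, rising with ligation (log2 fold change 1.15, edgeR adjusted p = 0.00288) and falling with implanted cells (−1.46, edgeR adjusted p = 0.00171). Itgax, which encodes CD11c, was at 0.552, 2.10 and 1.32 CPM and rose with ligation (1.92, edgeR adjusted p = 0.00633), a call lost without ligation replicate 3 (edgeR, adjusted p = 0.0679). Clec9a, a receptor of cross-presenting dendritic cells, was at 6.95, 5.62 and 4.29 CPM with no call for ligation minus sham or cells minus ligation (edgeR, adjusted p = 0.374 and 0.335). Its call as lower in cells minus sham (edgeR, adjusted p = 0.0252) was lost with library totals alone (0.0762), under DESeq2 (0.0503), without cell replicates 2 and 3 (0.208), and without sham replicates 2 or 3 or cell replicate 3 (up to 0.110). Of the 4 dendritic markers tested, 2 rose and 1 fell with ligation, the latter Zbtb46, and 1 fell with implanted cells, beside 38.2% and 9.87% of all genes called. By range, 2 of these 4 lay higher after ligation than in sham, beside 25% of genes tested, and 2 lay lower with implanted cells than after ligation, beside 14%. No dendritic marker was at 0 in all libraries. The 9 B cell markers summed to 10.8, 17.1 and 6.06 CPM, of which Ighm, the immunoglobulin heavy chain mu gene, gave 10.1, 15.7 and 5.64 CPM, while Ms4a1, which encodes CD20, had 0 counts in all 9 libraries. The 10 T cell markers summed to 5.88, 5.29 and 5.09 CPM, with Cd3d at 0 throughout. The 7 endothelial markers, of cells that can be induced to carry class II, summed to 1894, 1363 and 1428 CPM. The cardiomyocyte markers, at 37614, 31219 and 30217 CPM, show heart muscle in every group. Neutrophil markers summed to 40.9, 20.5 and 6.08 CPM. The lower sum after ligation came from S100a8 (14.5 to 3.69 CPM) and S100a9 (19.03 to 4.96 CPM), while Csf3r was at 4.14 and 6.34 CPM and Mmp9 at 1.68 and 4.04. Mmp9 was called higher (edgeR, adjusted p = 0.0121), but not without sham replicate 2 or ligation replicate 3 (edgeR, adjusted p up to 0.0781). Fibroblast markers summed to 1494, 2006 and 2005 CPM and natural killer cell markers to 2.14, 4.62 and 1.64, and the part of these cell types in the members' levels was not tested.

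Among the other genes of the class II region, H2-Ob was at 1.88, 2.17 and 1.28 CPM in sham, ligation and cell groups. It did not pass the test in either main comparison (edgeR's quasi-likelihood test, adjusted p = 0.667 for ligation minus sham and 0.236 for cells minus ligation). H2-Oa, the other chain of H2-DO, had 0 counts in all 9 libraries, and H2-Eb2 had 1 and 3 counts in ligation replicates 1 and 2 and 0 elsewhere.

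The list of class II promoter factors holds proteins that bind the X and Y boxes, such as the RFX and NF-Y subunits, and co-activators that do not bind DNA directly. Of 11 tested, 1 rose, 1 fell and 9 did not pass in ligation minus sham, where 38.2% of all genes were called. In cells minus ligation 1 rose, none fell and 10 did not pass, a share near the 9.87% of all genes called, with a list median of 0.06 beside 0.00 for all genes. Kat2b, an acetyltransferase that works with CIITA, rose with ligation by a log2 fold change of 0.50 (edgeR, adjusted p = 3.63e-06). The calls on Nfyc with ligation and on Creb1 with implanted cells did not hold in every alternative: Nfyc had an edgeR adjusted p of 0.461 with library totals alone, and Creb1 a DESeq2 adjusted p of 0.0577. The call on Nfyc was also lost without sham replicate 1 or 3 or ligation replicate 2 (edgeR, adjusted p up to 0.115), and that on Creb1 without ligation replicate 2 or cell replicate 2 (up to 0.0699).

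Endosomal proteases and their partners, which prepare antigen and the invariant chain, mostly rose with ligation, and most fell with implanted cells. Of 11 genes, 7 rose, 1 fell and 3 did not pass in ligation minus sham, with a list median of 0.35 on the log2 scale, beside 38.2% of all genes called. In cells minus ligation 7 fell, none rose and 4 did not pass, with a median of −0.30, beside 9.87% of all genes called. Cells minus sham had 4 higher, 2 lower and 5 not called, with a median of 0.13, beside 40.9% of all genes called in either direction.

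Ctss, cathepsin S, which makes the last cuts in the invariant chain in dendritic and B cells, was at 28.8, 28.2 and 28.9 CPM in sham. It was at 75.9, 69.5 and 67.6 CPM after ligation and 24.3, 25.9 and 27.5 CPM with implanted cells. The ligation libraries stood clear of the rest, with a log2 fold change of 1.30 (SE 0.0813, edgeR adjusted p = 6.75e-11) for ligation minus sham and −1.45 (SE 0.0805, edgeR adjusted p = 6.43e-11) for cells minus ligation. Cells minus sham did not pass the test (edgeR, adjusted p = 0.212). Ctss per unit of the class II sum was 0.0846 ± 0.00143 in sham, 0.135 ± 0.00684 after ligation and 0.181 ± 0.0116 with implanted cells (SD, n = 3), with no overlap between groups.

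The other named proteases changed less. Ctsb, cathepsin B, was at 553, 815 and 661 CPM, with log2 fold changes of 0.56 and −0.30 (edgeR, adjusted p = 3.94e-10 and 1.71e-05). Lgmn, the asparagine-specific protease legumain, was at 93.1, 137 and 102 CPM, with changes of 0.56 and −0.43 (edgeR, adjusted p = 2.54e-07 and 4.14e-05). Ctsz, cathepsin Z, was at 80.2, 113 and 84.8 CPM and changed by 0.50 and −0.41 (edgeR, adjusted p = 1.35e-06 and 6.67e-05). Ifi30, the lysosomal thiol reductase GILT, was at 7.27, 14.4 and 8.56 CPM and changed by 0.99 and −0.75 (edgeR, adjusted p = 0.000204 and 0.00684). Cst3, the protease inhibitor cystatin C, rose with ligation by 0.35 (edgeR, adjusted p = 3.61e-07). Its call with implanted cells (edgeR, adjusted p = 0.0474) was lost in 5 of the 9 fits that leave out 1 library, those without sham replicate 3, ligation replicates 1 or 2, or cell replicates 1 or 3 (adjusted p up to 0.202). It was also lost with DESeq2's size factors (0.0551), with only the groups compared (0.0529), with the replicate number as a block (0.0618), with libraries of a shared header stem added (0.0785) and without cell replicates 2 and 3 (0.249).

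**Figure D4:**
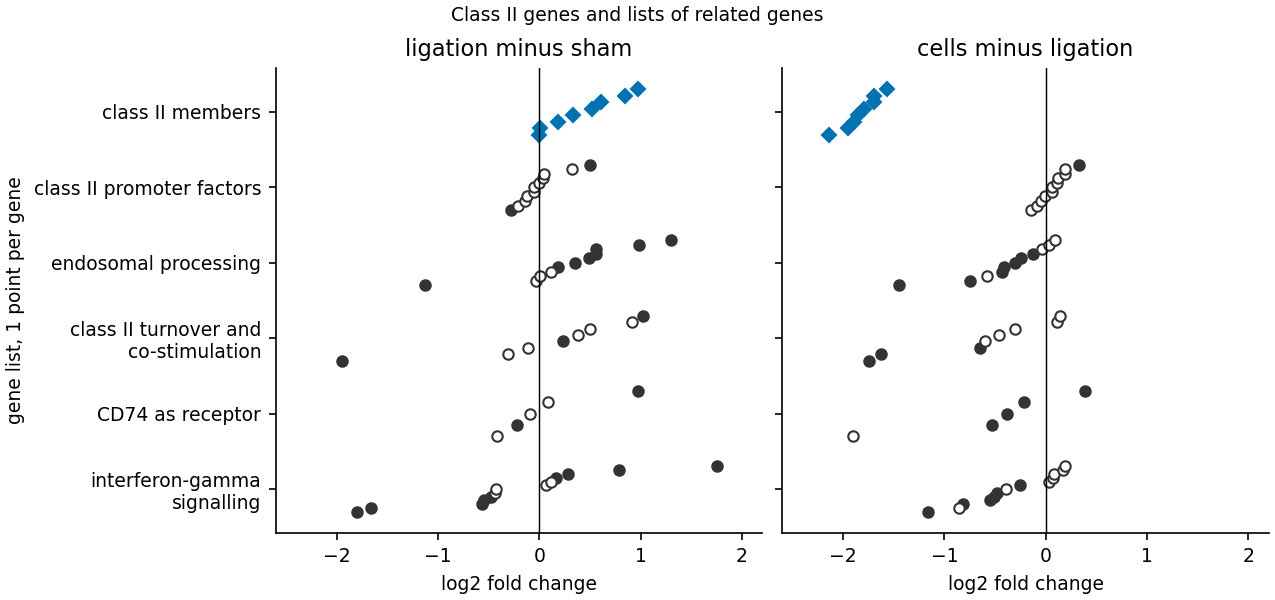
Fitted log2 fold change of each tested gene, by list, for ligation minus sham (left) and cells minus ligation (right); filled circles had an edgeR adjusted p under 0.05, open circles did not, and blue diamonds are the 8 class II genes, shown without a test. In the endosomal list the highest point on the left (1.30) and the lowest on the right (−1.45) are Ctss.

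Another list holds genes that turn class II over or act beside it at the cell surface. Of 9 listed, 8 were tested, and Pdcd1lg2 had 0 counts throughout. In ligation minus sham 2 rose, 1 fell and 5 did not pass, with a median of 0.31, a share near the 38.2% of all genes called. In cells minus ligation 3 fell, none rose and 5 did not pass, with a median of −0.53, beside 9.87% of all genes called. Marchf1, a ubiquitin ligase that sends class II and CD86 to degradation, was at 3.03, 2.14 and 3.02 CPM in sham, 6.61, 4.63 and 5.63 after ligation, and 1.84, 1.94 and 1.15 with implanted cells. It rose by a log2 fold change of 1.02 (edgeR, adjusted p = 0.00852) and fell by 1.74 (edgeR, adjusted p = 0.000647). The log2 fold change was −1.58 and no longer called with cell replicates 2 and 3 left out (edgeR, adjusted p = 0.0630). The call on Marchf8, a related ligase, in ligation minus sham (edgeR, adjusted p = 0.0345) did not hold under DESeq2 (adjusted p = 0.0708), nor without sham replicates 2 or 3 or ligation replicates 1 or 2 (edgeR, adjusted p up to 0.202).

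Cd86, a co-stimulatory ligand for T cells, was at 4.37, 5.86 and 1.85 CPM, with no call for ligation minus sham (edgeR, adjusted p = 0.349) and a fall of 1.63 on the log2 scale with implanted cells (edgeR, adjusted p = 0.00312). Cd274, which encodes the inhibitory ligand PD-L1, was at 94.7, 88.5 and 89.2 CPM in sham, 24.1, 21.7 and 25.0 CPM after ligation, and 14.0, 15.8 and 15.1 CPM with implanted cells. It fell by 1.94 with ligation (edgeR, adjusted p = 1.52e-13) and by a further 0.65 with implanted cells (edgeR, adjusted p = 0.000135). In ligation minus sham, Cd274 and the class II sum therefore lay in opposite directions.

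Cd74 protein also acts at the surface as a receptor for the cytokine MIF, with CD44 and chemokine receptors as partners. Of 6 listed genes 5 were tested, of which 1 rose, 1 fell and 3 did not pass in ligation minus sham, near the 38.2% of all genes called. In cells minus ligation 1 rose, 3 fell and 1 did not pass, beside 9.87% of all genes called. Cd44 was at 16.1, 31.8 and 24.3 CPM and rose with ligation by 0.97 on the log2 scale (edgeR, adjusted p = 9.08e-07). Ackr3, an atypical chemokine receptor, was at 89.2, 76.4 and 100 CPM and rose with implanted cells by 0.39 (edgeR, adjusted p = 0.000473). Its fall with ligation (edgeR, adjusted p = 0.0134) did not hold with library totals alone (adjusted p = 0.724). The 3 that fell with implanted cells were Cd44, Cxcr4 and Mif, and none held under DESeq2, with adjusted p of 0.0766, 0.0650 and 0.0554. With 1 library left out their highest edgeR adjusted p were 0.115, 0.171 and 0.156. Leaving out ligation replicate 3 or cell replicate 1 lost all 3 calls, ligation replicate 1 those on Cd44 and Cxcr4, cell replicate 2 those on Cd44 and Mif, cell replicate 3 those on Cxcr4 and Mif, and sham replicate 1 or ligation replicate 2 that on Mif.

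Interferon-gamma is the classical inducer of Ciita. Its own gene, Ifng, had a single count, in ligation replicate 3. Of 16 genes of its production and signalling, 13 were tested, of which 4 rose, 5 fell and 4 did not pass in ligation minus sham, with a median of −0.43, where 38.2% of all genes were called. In cells minus ligation 6 fell, none rose and 7 did not pass, with a median of −0.39, where 9.87% were called. Cells minus sham had 3 higher, 8 lower and 2 not called, with a median of −0.40, where 40.9% were called.

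Gbp2, an interferon-induced GTPase, was at 115, 78.8 and 44.6 CPM and fell by 0.55 with ligation and by 0.82 with implanted cells (edgeR, adjusted p = 1.41e-06 and 1.02e-07), so it was highest in sham, where the class II sum was intermediate. Cxcl9, an interferon-gamma induced chemokine, was at 37.1, 11.8 and 8.03 CPM and fell by 1.66 with ligation (edgeR, adjusted p = 2.09e-09). Its call with implanted cells (edgeR, adjusted p = 0.0295) did not hold under DESeq2 (adjusted p = 0.0563), nor without ligation replicates 1 or 3 or cell replicates 2 or 3 (edgeR, adjusted p up to 0.137). Il15, a cytokine for natural killer cells, was at 16.9, 4.84 and 5.53 CPM and fell with ligation by 1.80 (edgeR, adjusted p = 1.24e-07), with no call for cells minus ligation (edgeR, adjusted p = 0.663).

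Irf8, a transcription factor of the myeloid lineage, had the order of the class II sum. It was at 13.0 ± 1.28, 22.5 ± 1.99 and 10.1 ± 0.271 CPM (SD, n = 3), rose by 0.79 with ligation (edgeR, adjusted p = 5.77e-05) and fell by 1.16 with implanted cells (edgeR, adjusted p = 3.58e-06).

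The genes whose profile over the 9 libraries was most like the members' mean were named from 13787 genes, by the root mean square difference in log2(CPM + 0.5) centred on each gene's mean. They were Siglec1 at 0.154, Ctsc at 0.159, C1qb at 0.176, C1qc at 0.190, Vav1 at 0.201, Csf1r at 0.205, Wfdc17 at 0.210 and Mrc1 at 0.216. The members' own differences from that mean ran from 0.0841 for H2-Aa to 0.288 for H2-DMb2, so all 8 of these genes lay closer to it than Cd74, H2-Ab1, H2-DMb1 and H2-DMb2. Siglec1, which encodes the macrophage lectin sialoadhesin, had mean levels of 9.91 ± 0.615 CPM in sham, 15.6 ± 1.16 after ligation and 4.99 ± 0.401 with implanted cells (SD, n = 3). C1qb was at 102, 141 and 53.4 CPM and Csf1r at 50.0, 77.9 and 27.8 CPM, both highest after ligation and lowest with implanted cells. For Ctsc, sham and ligation were closer, at 61.0 ± 3.37 and 65.0 ± 5.42 CPM, with 23.7 ± 1.46 CPM in the cell group. For Mrc1, the mannose receptor gene, they were likewise close, at 61.6 ± 3.64 and 69.2 ± 7.90 CPM, with 29.1 ± 2.56 CPM in the cell group.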

How the data were processed

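The values the authors deposited are whole-number counts of reads on each gene, in a separate file for every library, with unequal totals and so not normalized. Per the submitters' processing notes the genome build was mm10. Whether sequence differences between that build and the NOD-SCID mice changed the counts of class II genes was not tested. The aligner, counter, strand setting and annotation are not given in the sources used here. Per the labels' protocols RNA was extracted with TRIzol and libraries made with the NEBNext Ultra RNA kit. Lines that name no gene, such as no feature (4.14% to 4.91%) and ambiguous (8.09% to 8.72%), were left out. Symbols came from GENCODE and matched 53274 of 53465 identifiers.

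Groups and replicate numbers came from sample titles. edgeR 4.0.16 in R 4.3.3 filtered low counts, leaving 13825 genes, scaled libraries by TMM and fitted all 3 groups with a quasi-likelihood model (6 residual degrees of freedom, common biological coefficient of variation 0.0726), with Benjamini-Hochberg adjustment over all genes tested and a threshold of 0.05. DESeq2 1.42.0 and limma 3.58.1 gave alternatives. Replicates of a group differed beyond sampling noise (mean chi-square per gene 1.98 to 3.96). Gene sites and exon lengths came from GENCODE on GRCm38, the mm10 assembly.

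The members, gene lists and tests were chosen with earlier results of these data known. Beside the members, at most 5 called genes per pathway list with a mean of at least 1 CPM and the smallest adjusted p were named, every gene of lists of 4 or fewer, Ifng and Ifi30, at most 4 genes per marker list by level (with markers at 0, used as a base for ratios, or, like Cd163, Ly6c2 and the low dendritic markers, named after their values were seen), and the 8 genes of nearest profile. Some items of these lists are not reported here.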

Additional observations from a re-analysis of the deposited data

How the results depend on the processing

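For the 8 class II genes, cells minus ligation and cells minus sham kept their direction in every alternative run. The summed class II log2 difference for ligation minus sham was 0.64 (0.83 with library totals alone, 0.44 without Cd74, and 0.41 as a mean of log2 CPM). For cells minus ligation it was −1.88 (−1.68 as a mean of log2 CPM), and for cells minus sham −1.24 (−1.08 with library totals alone, −1.42 without Cd74, and −1.29 with cell replicates 2 and 3 left out). Library totals alone moved the median of all genes to 0.20 in ligation minus sham and 0.15 in cells minus sham, and fold changes above are relative to TMM. With those totals 5 members were called higher after ligation, adding H2-DMa and Ciita. The sign of 2 members in ligation minus sham was not stable. H2-Ab1 was 0.19 with library totals alone and 0.0050 with no filter, and ran from −0.11 to 0.0497 with 1 library left out. H2-DMb2 was −0.0042 under DESeq2, −0.0010 under limma-voom, −0.0056 with only the groups compared, −0.0533 with libraries sharing a header stem added and −0.0086 without cell replicates 2 and 3, and ran from −0.17 to 0.12 with 1 library left out. Ctss in cells minus sham was 0.0139 with library totals alone. The cause of these shifts was not tested. With cell replicates 2 and 3 left out, an alternative chosen after seeing the data, as was adding libraries of a shared header stem, 485 genes passed in cells minus ligation in place of 1365, and 13 pathway genes in place of 21, with 1 cell library remaining that is assumed to vary like the other groups. With 1 library left out, genes passing ran from 4482 to 5459 in ligation minus sham, 951 to 1398 in cells minus ligation and 5055 to 5746 in cells minus sham, and pathway genes from 19 to 26, 15 to 20 and 20 to 27.

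Replicate numbers are shared between groups, but same-numbered libraries did not deviate together (correlations of −0.12 to 0.08 over 11146 genes), so they share only a number. With the replicate number as a block, 5134, 1230 and 5511 genes and 24, 17 and 25 pathway genes passed in the 3 comparisons, against 5277, 1365 and 5661 genes and 24, 21 and 26 pathway genes without it. Beside the losses given above, the cells minus ligation calls on Cxcl9, Cd44, Creb1 and Mif and the ligation minus sham call on Marchf8 were lost with cell replicates 2 and 3 left out. Those on Cxcl9 and Marchf8 were lost with only the groups compared, those on Cxcr4 and Mif under the replicate block and with header-stem libraries added, and that on Ly6c2 under limma-voom. Depth limits H2-DMb1, H2-DMb2 and Ciita, which had 4 to 57 counts per library.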

Other observations

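Of the 10 dendritic cell markers, 6 had too few counts to enter a test. Ccr7, the homing receptor of migrating dendritic cells, had 5, 1 and 4 counts in the ligation libraries and 0 in the other 6. Flt3, a receptor of dendritic cell precursors, had 1, 4 and 13 counts after ligation, 1, 0 and 0 in sham, and 3, 0 and 0 with implanted cells. Cd209a, a lectin of monocyte-related dendritic cells, had 3, 6 and 5 counts after ligation, at most 1 in a sham library and 2 in each cell library. Xcr1, found on cross-presenting dendritic cells, had 6, 10 and 8 counts after ligation, 2, 3 and 2 in sham, and 7, 0 and 8 with implanted cells, so the last of these overlapped ligation. Batf3, a transcription factor of the same cells, had 5, 5 and 3 counts after ligation, 6, 4 and 4 in sham, and 0, 6 and 4 with implanted cells, and the groups overlapped. Siglech, a marker of plasmacytoid dendritic cells, had 0, 2 and 5 counts after ligation, 1, 0 and 2 in sham, and 1, 0 and 1 with implanted cells, and overlapped likewise. Differences of this size are not tested here.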
